A study of Mus musculus with 4 samples.

Results

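The genes of the G1 engine of the cell cycle were read in mouse Flk-1+ mesoderm sorted by an Etv2 reporter. They are the D-type cyclins Ccnd1, Ccnd2 and Ccnd3, the kinases Cdk4 and Cdk6 that the D cyclins activate, and the CDK inhibitors Cdkn1a, Cdkn1b, Cdkn1c and Cdkn2c. These 9 genes were taken by name; earlier results of these data were known when the set was drawn up. All 9 were measured, among 18193 genes tested, on 25 of the 34945 probe sets that carry 1 gene symbol. For each gene the probe set with the highest mean over the 4 arrays was kept, and the others are shown beside it.

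TT2 embryonic stem cells, heterozygous for a Venus reporter knocked into Etv2, were differentiated on OP9 stromal cells. The sample labels give day 5, while the series text gives 4 to 5 days. Flk-1+ cells were then sorted into an Etv2-Venus negative population (Flk-1+/Etv2-) and an Etv2-Venus positive population (Flk-1+/Etv2+), with 2 arrays of each, numbered 1 and 2. Both populations carry the reporter allele, come from the same kind of culture and were selected for Flk-1 (gene Kdr), a receptor for VEGF. Etv2 is an ETS factor needed for blood and endothelium. The labels name no clone and do not say whether the arrays came from separate cultures, and p-values here reflect array-to-array spread alone, possibly technical. Precision is limited by the number of arrays. Each array gives 1 value per gene, written in the order array 1, array 2. Expression is the deposited log2 value, and differences are Etv2-Venus positive minus negative on that scale; SE is the standard error in the limma fit.

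D cyclins are made in response to mitogens and bind Cdk4 or Cdk6, and these kinases phosphorylate the retinoblastoma protein, which releases E2F factors and lets the cell enter S phase. The INK4 inhibitors, such as p18 encoded by Cdkn2c, bind Cdk4 and Cdk6 directly. The Cip/Kip inhibitors p21, p27 and p57, encoded by Cdkn1a, Cdkn1b and Cdkn1c, block Cdk2 complexes and can also help D cyclins assemble with their kinases. Pluripotent mouse cells have a short G1 phase and little cyclin D, and D cyclins come up as cells differentiate.

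Among the 9 genes Ccnd2 had the largest difference, measuring 1.81-fold lower in the Etv2-Venus positive cells on the probe set kept and lower on its other probe sets too. The other D cyclins, Ccnd1 and Ccnd3, differed by 0.19 and 0.15 in the higher direction, and Cdk4, Cdkn1b and Cdkn2c by -0.0065, -0.0037 and 0.03. Cdk6 and Cdkn1c had differences of -0.40 and -0.56, with overlapping arrays. With limma, adjusted p was under 0.05 for 0 of the 9 genes and for 0% of all genes tested. At an unadjusted p under 0.05 limma gave 1 of the 9, Ccnd2 in the lower direction, against 2131 of all genes (11.7%), of which 1287 (7.07%) were higher and 844 (4.64%) lower in the positive cells. When limma was run with a trended, robust variance model, it called 112 genes at the adjusted threshold, Ccnd2 among them. The 2 populations had no overlap between their arrays for 3 of the 9 genes, 2 of them higher and 1 lower; among all genes this held for 39.5%, with 22.4% higher and 17% lower. A difference of at least 1.5-fold with arrays apart was seen for 1 of the 9, again Ccnd2, and for 4.01% of all genes, 1.59% in the lower direction.

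Ccnd2, the D cyclin known for its roles in the gonads, cerebellum and blood cells, measured 11.36 and 11.57 in Venus-negative cells and 10.56 and 10.66 in Venus-positive cells. Both positive arrays lay below both negative arrays. The difference was -0.86 (SE 0.11, n = 2 arrays per group), 1.81-fold lower in the positive cells, with a 95% interval from -1.16 to -0.56. The limma adjusted p was 0.0954, which misses the threshold. It was 0.0491 in limma with the trended, robust variance model, and lay between 0.0491 and 0.421 over the 12 alternatives tried. By size, Ccnd2 ranked 127 among the 18193 genes from the lowest difference upwards, and by unadjusted limma p it ranked 171. In the same fit 234 genes had a limma adjusted p under 0.10, the smallest being 0.067.

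The array carries 7 probe sets for Ccnd2, and all 7 read lower in the positive cells with arrays apart, where 15.8% of all probe sets were apart in that direction. All 7 had an unadjusted limma p under 0.05, as did 3.63% of all probe sets in the lower direction. Their differences ran from -0.98 to -0.52. The smallest came from the dimmest probe set, 1416124_at, which measured 5.62 and 5.86 in Venus-negative cells and 5.11 and 5.33 in Venus-positive cells, close to the array medians of 5.46 to 5.52. On 1430127_a_at the values were 10.50 and 10.60 against 9.59 and 9.55. These probe sets read the same RNA samples, so they do not add replicates. With each probe set tested separately in limma the adjusted p of the 7 ran from 0.170 to 0.416.

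**Figure D1:**
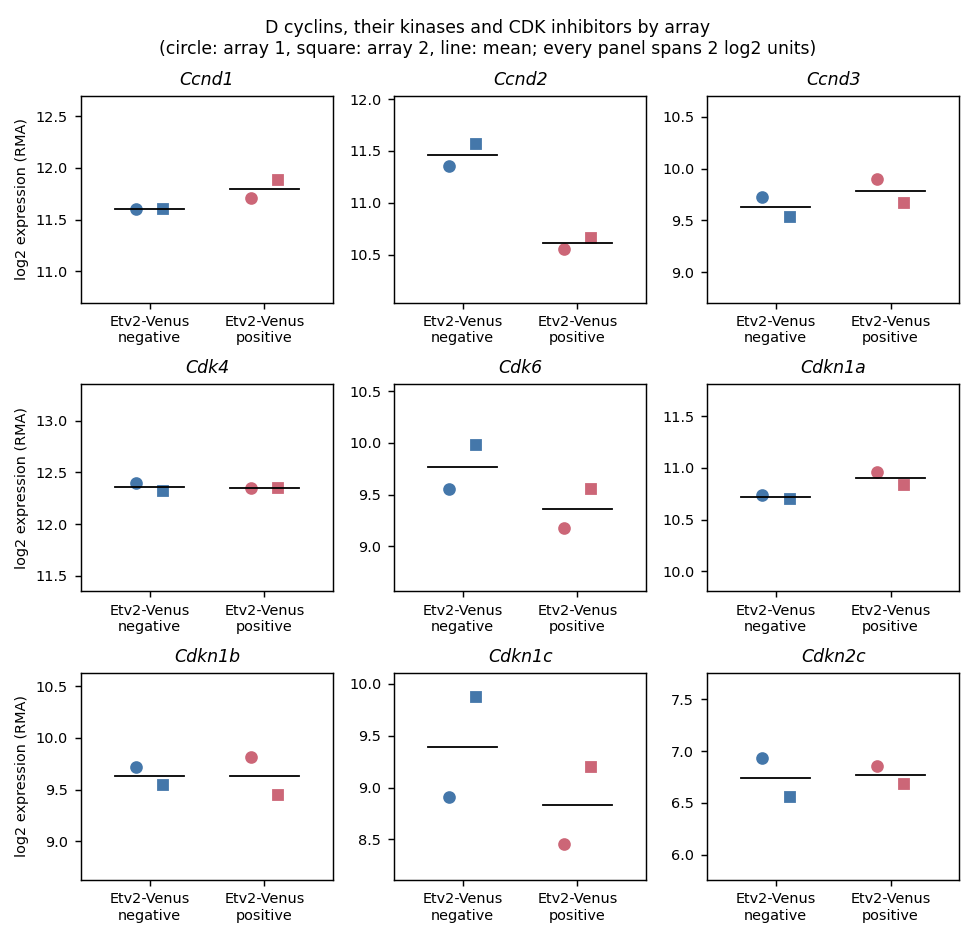
Deposited log2 expression (vertical axis) of the 9 genes in Etv2-Venus negative (blue) and positive (red) Flk-1+ cells, with array 1 as a circle, array 2 as a square and the group mean as a line. Each panel spans the same range around its own centre, and Ccnd2 is the gene whose positive arrays, at 10.56 and 10.66, stand farthest from its negative arrays, at 11.36 and 11.57, without overlap.

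Ccnd1, the D cyclin most widely induced by growth factors, measured 11.60 and 11.60 in Venus-negative cells and 11.71 and 11.88 in Venus-positive cells. The positive arrays were above the negative ones, by a difference of 0.19 (SE 0.10) with a 95% interval from -0.08 to 0.46, and the limma adjusted p was 0.582. A second probe set, 1448698_at, gave 11.30 and 11.13 against 11.57 and 11.44, a difference of 0.29 (SE 0.12). The third, 1417419_at, measured 9.22 and 10.14 in Venus-negative cells and 9.43 and 10.26 in Venus-positive cells. On it the arrays numbered 2 exceeded those numbered 1 by 0.92 and 0.83, more than its difference of 0.17 between the populations. The 3 probe sets of Ccnd1 therefore pointed the same way but differed in how they varied between arrays.

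Ccnd3, the D cyclin prominent in lymphocytes and muscle, measured 9.73 and 9.53 in Venus-negative cells and 9.90 and 9.66 in Venus-positive cells. The groups overlapped, and the difference of 0.15 (SE 0.13) had a 95% interval from -0.19 to 0.49. Its other probe sets differed by -0.05 and -0.23, the latter on a dim one at 3.95 and 3.91 against 3.71 and 3.69. With the mean over its probe sets the difference of Ccnd3 turned to -0.04. Because levels of different probe sets cannot be set against each other, the balance of the D cyclins was followed as a difference within each array. Ccnd1 minus Ccnd2 was 0.24 and 0.04 in Venus-negative cells and 1.15 and 1.22 in Venus-positive cells. That within-array difference shifted by 1.05 log2 units between the populations, and for Ccnd2 minus Ccnd3 the shift was -1.01, with arrays apart in both cases. For Ccnd1 minus Ccnd3 the shift was 0.04 and the arrays overlapped. These shifts restate the differences of the single genes given above and come without a test. Arrays were also apart for Cdkn1a minus Cdkn1b, where the shift was only 0.18.

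**Figure D2:**
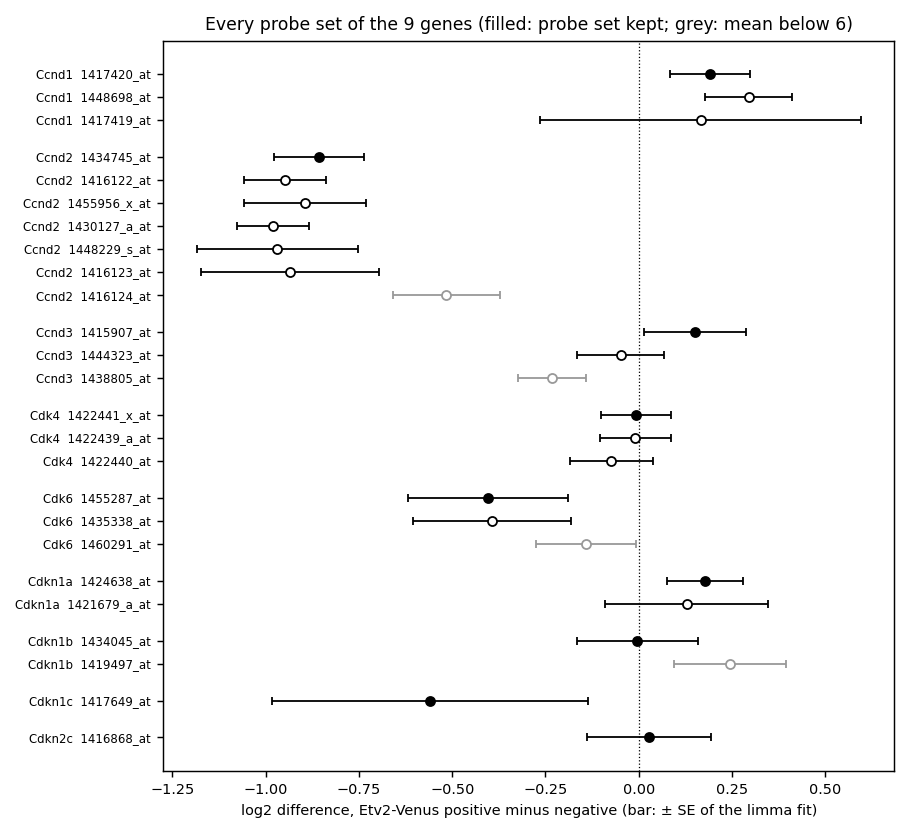
Log2 difference, Etv2-Venus positive minus negative (horizontal axis), of all 25 probe sets of the 9 genes, with the SE of the limma fit on all probe sets as bars. Filled points are the probe sets kept and grey ones have a mean below 6; the 7 probe sets of Ccnd2 all lie between -0.98 and -0.52.

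Cdk4, the partner kinase of D cyclins in most tissues, measured 12.40 and 12.32 in Venus-negative cells and 12.35 and 12.35 in Venus-positive cells. The groups overlapped, and the difference of -0.0065 (SE 0.09), which turned to 0.033 with arrays centred on their medians, had a 95% interval from -0.24 to 0.23. The kept probe set, 1422441_x_at, may cross-hybridise with similar sequences; the other 2 gave -0.01 and -0.07. Cdk4 is a known target of MYC through E-box sequences in its promoter, which is printed for that reason. The RefSeq promoter window of GRCm38.p6, chr10:127063285-127063584 on the plus strand, runs from 250 bases before to 50 after the gene's start, and capitals mark the E-box CACGTG, which reads the same on both strands.
Cdk4: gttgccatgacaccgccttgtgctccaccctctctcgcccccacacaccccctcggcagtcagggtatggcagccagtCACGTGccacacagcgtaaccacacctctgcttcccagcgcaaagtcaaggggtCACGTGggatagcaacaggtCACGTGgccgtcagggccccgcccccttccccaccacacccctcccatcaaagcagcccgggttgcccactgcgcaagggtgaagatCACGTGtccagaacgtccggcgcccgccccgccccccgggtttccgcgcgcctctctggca
The window holds 4 matches, starting 172, 118, 98 and 11 bases before the start. At least 1 match was found in 7.15% of the 32851 promoter windows of this length, and 4 or more in 0.0244%. A match is a description of the sequence and not of binding. Myc itself measured 10.39 and 10.33 in Venus-negative cells and 10.72 and 10.84 in Venus-positive cells, a difference of 0.42 (SE 0.10, limma adjusted p 0.195). Mycn, chosen after its values were seen, went the other way, at 11.76 and 11.75 against 11.56 and 11.63. Its difference was -0.16 (SE 0.09, limma adjusted p 0.603), with arrays apart. The Cdk4 probe sets differed by -0.07 to -0.0065, and a link of Myc or Mycn to Cdk4 in these cells was not tested.

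Cdk6, the other D cyclin kinase and the main one in many blood cells, measured 9.55 and 9.98 in Venus-negative cells and 9.17 and 9.56 in Venus-positive cells. The groups overlapped by a small margin, positive array 2 lying just above negative array 1. The difference of -0.40 (SE 0.21) had a 95% interval from -0.95 to 0.14, with a limma adjusted p of 0.567. Its second bright probe set, 1435338_at, gave 9.25 and 9.54 against 8.76 and 9.24, a difference of -0.39 with the positive arrays just below the negative ones, and the third, dim one gave -0.14. Within the arrays numbered 1 and those numbered 2 the kept probe set differed by -0.38 and -0.43 between the populations. The arrays numbered 2 were higher than those numbered 1 by 0.43 in Venus-negative and 0.38 in Venus-positive cells. Without negative array 2 or positive array 1 the difference of Cdk6 was -0.19 and -0.21, and without negative array 1 or positive array 2 it was -0.62 and -0.60. The single E-box in the Cdk6 promoter window started 220 bases before the start.

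Cdkn1a, which encodes p21 and is the classic target of p53, measured 10.74 and 10.70 in Venus-negative cells and 10.96 and 10.83 in Venus-positive cells. Both positive arrays lay above both negative ones, by a difference of 0.18 (SE 0.10, limma adjusted p 0.587) with a 95% interval from -0.08 to 0.43. The second probe set, 1421679_a_at, gave 9.29 and 9.69 against 9.40 and 9.84, where the groups overlapped and the arrays numbered 2 were higher by 0.39 and 0.44. RefSeq gives Cdkn1a a pair of promoter windows. The upstream one, chr17:29090729-29091028 of GRCm38.p6 on the plus strand, is printed because it carries a pair of ACATGT sequences, the core of the p53 half-site, in capitals.
Cdkn1a: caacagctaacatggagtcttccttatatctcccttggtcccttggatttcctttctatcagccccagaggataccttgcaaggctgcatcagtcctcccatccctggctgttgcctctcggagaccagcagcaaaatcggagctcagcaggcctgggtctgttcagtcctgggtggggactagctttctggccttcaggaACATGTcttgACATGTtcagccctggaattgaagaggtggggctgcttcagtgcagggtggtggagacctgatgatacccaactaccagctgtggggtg
The matches start 49 and 39 bases before that start, and the second window has 0. ACATGT reads the same on both strands, and 2 or more matches were found in 0.329% of the 32851 windows, 1 or more in 5.28%. Of the p53 target genes listed, 18 were measured. At an unadjusted p under 0.05 limma gave 4 of them higher and 2 lower in the positive cells, where 7.07% of all genes were higher and 4.64% lower. Their median difference was 0.08, against 0.01 for all genes, but it was -0.0018 with the mean over probe sets and 0.015 without negative array 1. Eda2r, a death-receptor family member, differed by 0.77 (SE 0.11), Plk2, a polo-like kinase, by 0.55 (SE 0.11), and Ccng1, a cyclin induced by p53, by 0.36 (SE 0.09). Whether these 3 targets differed more than Cdkn1a was not tested.

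Cdkn1b, encoding p27, measured 9.72 and 9.55 in Venus-negative cells and 9.81 and 9.45 in Venus-positive cells. The positive arrays enclosed the negative ones, and the difference of -0.0037 (SE 0.16), or 0.035 with arrays centred on their medians, had a 95% interval from -0.41 to 0.41. Its second probe set was dim, at 4.30 and 4.55 against 4.55 and 4.79. Cdkn2c, encoding the INK4 protein p18, measured 6.93 and 6.56 in Venus-negative cells and 6.86 and 6.68 in Venus-positive cells, a difference of 0.03 (SE 0.16) with a 95% interval from -0.39 to 0.45. The positive arrays of Cdkn2c lay inside the range of the negative arrays. As folds, the intervals run from 0.750 to 1.33 for Cdkn1b and from 0.762 to 1.36 for Cdkn2c.

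Cdkn1c, an imprinted gene expressed from the maternal copy that encodes p57, was the most variable of the 9. It measured 8.91 and 9.87 in Venus-negative cells and 8.46 and 9.20 in Venus-positive cells. The groups overlapped, since positive array 2 lay above negative array 1. The difference was -0.56 (SE 0.41) with a 95% interval from -1.63 to 0.51 and a limma adjusted p of 0.708. The arrays numbered 2 were higher than those numbered 1 by 0.96 in Venus-negative and 0.75 in Venus-positive cells, more than the difference between the populations. Within the arrays numbered 1 and those numbered 2 the positive cells were lower by differences of -0.45 and -0.67. Without negative array 2 or positive array 1 the difference was -0.08 and -0.19, and without negative array 1 or positive array 2 it was -1.04 and -0.93. The array has 1 probe set with this symbol, so Cdkn1c has no second reading.

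**Figure D3:**
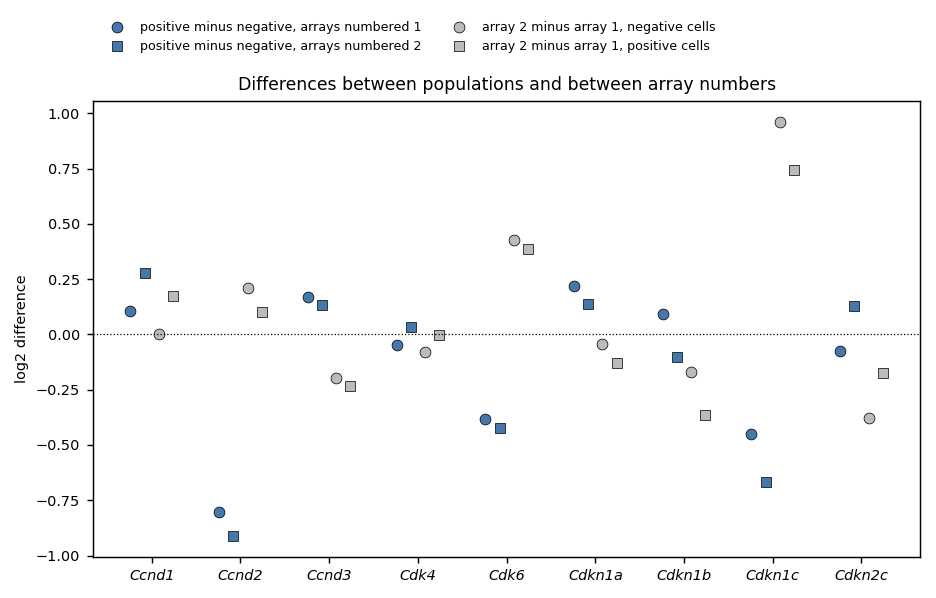
Log2 differences (vertical axis) of the 9 genes between the populations within arrays of the same number (blue; circle for number 1, square for number 2) and between array 2 and array 1 within a population (grey; circle for negative, square for positive cells). For Ccnd2 the population differences of -0.80 and -0.91 exceed the number differences of 0.21 and 0.10 in size, while for Cdkn1c the number differences of 0.96 and 0.75 exceed the population differences of -0.45 and -0.67.

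Measures of RNA quality and markers of other cells also moved with the array number. The 3' minus 5' signal of the Tfrc control, which grows as RNA is degraded, was 1.46 and 0.85 in Venus-negative cells and 1.91 and 1.21 in Venus-positive cells, higher on the arrays numbered 1. That of the Pcx control was 1.06 and 0.85 against 0.92 and 0.58, with the same order. Between the populations the controls went opposite ways, with Tfrc higher and Pcx lower in the positive cells on both array numbers. Of 16 markers of OP9 stroma, fibroblasts and fat precursors 9 had a mean below 6, and the mean level of all 16 was 6.69 and 6.17 in Venus-negative cells and 6.61 and 5.86 in Venus-positive cells. Their median difference between the populations was -0.17, but 0.11 without negative array 1 and 0.23 without positive array 2. At an unadjusted limma p under 0.05, 3 of the 16 were lower and 1 higher, where 4.64% and 7.07% of all genes were. Pluripotent cell markers averaged 7.15 and 6.81 against 6.82 and 6.46 over 10 genes, 5 of them with a mean below 6. Between the populations their median difference was -0.23, or -0.71 among genes with a mean of at least 6. Of the 10 markers 4 differed by at least 1.5-fold with arrays apart, 3 lower and 1 higher, where 4.01% of all genes did. The part of RNA quality and of such other cells in the differences between the populations, that of Ccnd2 included, was not tested. Nor was their part in the values of Cdkn1c, Cdk6 and the third Ccnd1 probe set. Expression was read in bulk, so fewer cells of a type and less RNA per cell cannot be told apart.

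Markers of the sorted populations differed around these genes. Kdr measured 12.51 and 12.68 in Venus-negative cells and 12.64 and 12.81 in Venus-positive cells, and Etv2 12.03 and 11.87 against 12.64 and 12.41, so Flk-1 and Etv2 transcripts were strong in both populations. Of 10 endothelial markers 9 were higher with arrays apart, where 22.4% of all genes were. The mean level of all 10 markers was 7.49 and 7.48 in Venus-negative cells and 8.40 and 8.50 in Venus-positive cells. Emcn, chosen after its values were seen, was the tenth, at 3.50 and 3.26 against 3.27 and 3.50. Of 10 nascent and paraxial mesoderm markers 9 were lower with arrays apart, where 17% of all genes were. The mean of all 10 markers was 9.46 and 9.16 against 7.98 and 7.69. Mixl1, named after its values were seen, overlapped at 11.73 and 10.06 against 10.82 and 9.37. Pdgfra, a receptor of early mesoderm, differed by -1.65 (SE 0.38). Ccnd2 lay lower as the mesoderm markers did, and the part of a changed cell mixture in its difference was not tested. Primitive red cell markers had a median difference of -0.0075, with 5 of 6 below a mean of 6.

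The wider G1 pathway was read through lists of its components, and since 0 of their genes had a limma adjusted p under 0.05, each list is given by its counts at an unadjusted p under 0.05. Beside them stand all genes tested, of which 7.07% were higher and 4.64% lower at that p. Among the other INK4 inhibitors 1 of 3 was higher and 0 lower. Cdkn2d, which encodes p19, measured 8.01 and 7.81 in Venus-negative cells and 8.81 and 8.66 in Venus-positive cells. Its positive arrays lay above its negative ones, by a difference of 0.83 (SE 0.12, limma adjusted p 0.0983), 1.77-fold higher. Cdkn2a, whose locus encodes p16 and the p53 activator ARF, differed by 0.27 (SE 0.11), and Cdkn2b, encoding p15, by 0.11 (SE 0.23). Cdkn2c, of the same family as Cdkn2d, had the difference of 0.03 given above.

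Of 9 E and A cyclins, Cdk2 and its activators, 1 was higher and 0 lower, with a median difference of 0.01 that became -0.03 without positive array 2. Ccna2, the cyclin of S and G2 phase, differed by 0.36 (SE 0.13), Cdk2 by 0.22 (SE 0.09) and Ccne1, the cyclin E that acts after the D cyclins, by -0.24 (SE 0.12). Among 13 pocket proteins, E2F and DP factors 3 were higher and 0 lower, with a median of 0.11. These 3 were E2f8 and E2f7, repressors that act late in S phase, at 0.46 (SE 0.09) and 0.30 (SE 0.09), and Rbl1, the pocket protein p107, at 0.32 (SE 0.09). E2f7, E2f8 and Rbl1 are themselves known E2F targets. Of 14 genes for the turnover or folding of D cyclins, p27 and their kinases, 0 were higher and 0 lower, with a median of 0.02 that ran from -0.0097 without positive array 1 to 0.09 without positive array 2. They included Skp2, the F-box protein that marks p27 for destruction, at 0.18 (SE 0.13), its cofactor Cks1b at 0.15 (SE 0.09), and Ambra1, a ligase adaptor for D cyclins, at 0.14 (SE 0.11).

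Genes that feed into the D cyclins from outside, among them MYC, FOXO, Wnt and ID factors, gave 3 of 17 higher and 1 lower, with a median of 0.04 that became -0.08 without negative array 1 and -0.07 without positive array 2. Ets1, an ETS factor of endothelium, differed by 0.78 (SE 0.11) and Lef1, a nuclear effector of Wnt signalling, by -0.71 (SE 0.15). Lef1 measured 10.57 and 10.37 in Venus-negative cells and 9.93 and 9.60 in Venus-positive cells. Of the 17 genes 10 had differences above 0, Myc and Ets1 among them. Whether any of the 17 bears on Ccnd2 was not tested. Of 14 genes, the neighbours of Cdkn1c in its imprinted region together with Igf2, 6 had a mean below 6. The 14 gave 1 higher and 1 lower, with a median of 0.03. That median became -0.02 without negative array 2 and -0.0014 without positive array 1. The lower one was Phlda2, a placental growth regulator from the same imprinted domain, which measured 11.91 and 12.11 in Venus-negative cells and 10.31 and 10.71 in Venus-positive cells, a difference of -1.51 (SE 0.17, limma adjusted p 0.0798). Its groups were apart, unlike those of Cdkn1c, and its arrays numbered 2 were higher as those of Cdkn1c were. Cd81, a tetraspanin of the same region, differed by 0.33 (SE 0.10) and Slc22a18 by -0.16 (SE 0.09).

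Genes of G2 and mitosis were read beside the G1 genes, and 8 of 9 were higher at an unadjusted limma p under 0.05, against 7.07% of all genes. The median difference of the list was 0.94, or 0.62 with the mean over probe sets. Aurka, a mitotic kinase, differed by 1.04 (SE 0.10), Cdk1, the kinase of mitotic entry, by 1.09 (SE 0.12) and the proliferation marker Mki67 by 0.85 (SE 0.12). The exception was Ccnb2, a mitotic cyclin named after its values were seen, which differed by 0.06 (SE 0.09), less than Ccnd1, Ccnd3 and Cdkn1a did.

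**Figure D4:**
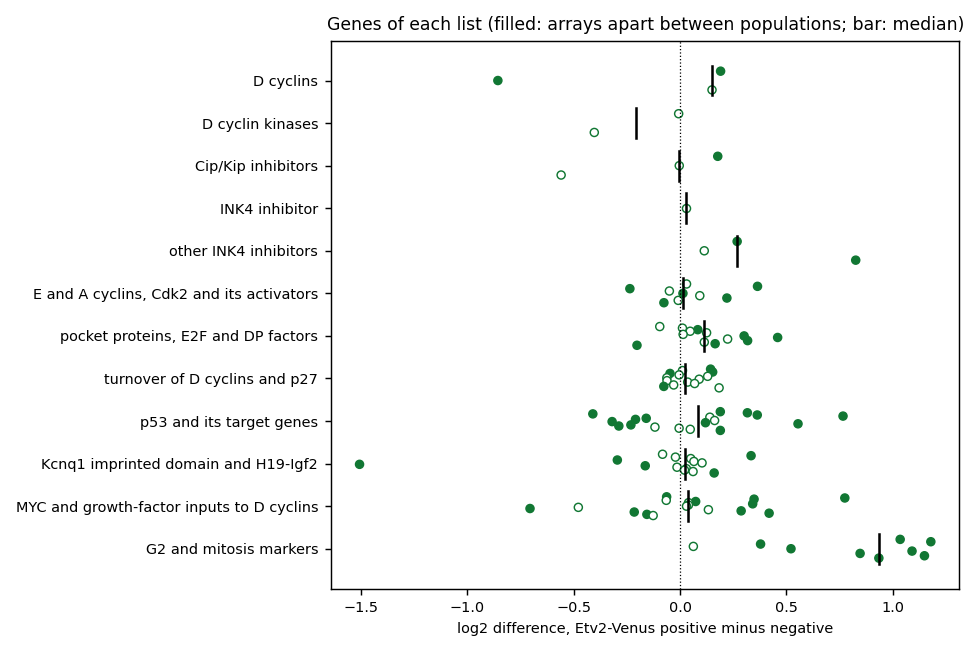
Log2 difference, Etv2-Venus positive minus negative (horizontal axis), of each gene in the G1 lists and the mitotic list (rows), with the list median as a bar and filled points where positive and negative arrays were fully apart. List medians other than that of the G2 and mitosis genes, at 0.94 (0.62 with the mean over probe sets), lie between -0.20 for the D cyclin kinases and 0.27 for the other INK4 inhibitors; Ccnd2 at -0.86 and Phlda2 at -1.51 lie farthest to the lower side.

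The genes whose 4 array values most resembled those of Ccnd2 were found among 10178 genes with a mean of at least 6, by the root mean square distance after each gene was centred on its own mean. The nearest were Fgfr2, a fibroblast growth factor receptor, at a distance of 0.021 log2 units, Ddr1, a collagen receptor kinase, at 0.043, and Fzd1, a Wnt receptor, at 0.043. Fgfr2 measured 7.55 and 7.79 in Venus-negative cells and 6.75 and 6.90 in Venus-positive cells, a difference of -0.84. For Cdkn1c the nearest were Airn, an imprinted non-coding RNA, at 0.068, Ammecr1 at 0.070 and Gpd2, a mitochondrial glycerol phosphate dehydrogenase, at 0.078. Airn measured 7.87 and 8.71 in Venus-negative cells and 7.49 and 8.12 in Venus-positive cells, and so shared with Cdkn1c the higher values on the arrays numbered 2. These likenesses rest on 4 arrays.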

How the data were processed

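RNA of the sorted cells was biotin-labelled with an Affymetrix 3' IVT kit and hybridised to Affymetrix arrays, per the labels' protocols. The deposited numbers are log2 expression values for each probe set, which the authors obtained by RMA under R 2.8.0 according to the submitters' processing notes. Their log base was inferred from their range, 2.16 to 14.93. RMA forces the arrays to 1 distribution, which hides any change shared by every gene, and it compresses low values. Detection calls were not used here.

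The annotation gave 34945 probe sets 1 symbol and 932 several, and did not list 9160. Each gene was represented by its brightest probe set on average. The population was the only term of the limma 3.58.1 model (R 4.3.3; lmFit, then eBayes; two-sided), with 2 residual and 2.68 prior degrees of freedom, and p-values were adjusted by Benjamini-Hochberg over 18193 genes. Every probe set was also fitted in a model of its own. Data simulated for this comparison, with 18193 genes and moderated variances, gave calls for 12% of genes shifted by 0.5 log2 units and 94% of those shifted by 1; 9 unshifted genes were called too. Under gene-wise variances the shares were 0% and 34%, and 1 unshifted gene was called. The arrays themselves gave 0 calls although differences ran from -2.22 to 1.57, so the 94% does not describe them.

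The 9 genes and the lists were chosen with earlier results of these data known. The genes named are the 9, Etv2, Kdr and Pdgfra, the 3 genes with the smallest p of each list (markers of other cells are given as list means instead), and the 3 most like Ccnd2 and Cdkn1c, which had the largest differences. Any other is marked as chosen after its values were seen. Of 158 genes in 14 lists 152 were measured. Promoters from RefSeq (GRCm38.p6) matched 6 of the 9 genes; Ccnd1, Ccnd2 and Cdkn1c had no entry. Alternatives tried were other probe sets per gene, a filter on dim genes, other variance models and a block for the array number. Median centring, a repeated quantile normalization and leaving out each array were tried as well. Plots were made in matplotlib 3.10.9.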

Additional observations from a re-analysis of the deposited data

How the results depend on the processing

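Over the 12 alternatives Ccnd1, Ccnd2, Cdk6, Cdkn1a and Cdkn1c kept the sign of their differences, and 8 of the 9 genes never passed. Not all 12 could change a sign. The trended, robust variance model, the block, the filter on dim genes and the fit of every probe set left each difference as it was. Dropping probe sets that may cross-hybridise changed the difference of Cdk4 alone. The mean over probe sets could not change that of Cdkn1c. The kept signs therefore rest on the remaining alternatives. The limma counts of called genes, 0 as reported, were 79 (66 higher, 13 lower) among genes with a mean of at least 6, and 112 (81 higher, 31 lower) with the trended, robust variance model. In the latter 1 of the 9 genes passed, Ccnd2, at the unchanged difference of -0.86 (limma adjusted p 0.0491). Leaving out each array, with the lone array assumed to vary like the other population's, gave 0 calls, and Ccnd2 from -0.96 to -0.75. Signs turned for genes near 0, and the cause was not tested. With the mean over probe sets Ccnd3 was at -0.043 and Cdkn1b at 0.12, and with arrays centred on their medians Cdk4 was at 0.033 and Cdkn1b at 0.035. Leaving out each array gave -0.046 to 0.033 for Cdk4, -0.19 to 0.18 for Cdkn1b and -0.16 to 0.21 for Cdkn2c. Of 168 other values of list medians 26 moved by more than the spread between arrays, as did 1 of 80 within-array shifts. The spread was that of the list mean per array for the medians, and of the within-array difference for the shifts. Some values could not move. A changed variance model or block leaves a median as it was, and median centring leaves a within-array shift as it was.

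Arrays of the same number share only that number in the labels. Their deviations from the group means correlated at 0.543 over 18193 genes, which are not independent. With the array number as a replicate block limma called 0 genes, and gave adjusted p 0.0856 for Ccnd2, 0.122 for Cdk6 and 0.124 for Cdkn1c. The low number of arrays limits every interval, and probe sets near the array median limit the size of a difference.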
